A study of Mus musculus with 6 samples.

Results

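Genes of mitosis and of DNA replication were followed in mouse glomeruli whose podocytes had lost Vhl. The members were 45 genes chosen by symbol, 32 that act in mitosis and 13 that act in S phase, the part of the cell cycle in which DNA is copied. On the array 44 of them had a probe set annotated with that symbol alone, 31 mitosis genes and all 13 S phase genes, out of 18193 genes so annotated. The cyclin gene Ccnb1 had none and was not analysed. Together the 44 genes had 100 probe sets.

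Glomeruli are the filtering units of the kidney, and podocytes are the epithelial cells that wrap their capillaries. The data were 6 Affymetrix arrays of total glomerular RNA, 1 per mouse, from females 6 weeks old. In 3 of the mice Cre recombinase, driven by the podocin promoter (Pod-Cre), had excised a floxed Vhl gene, so that other glomerular cells keep theirs. The 3 controls were littermates labelled wildtype. The parents carried 1 copy of Pod-Cre and were homozygous for the floxed gene. If that held for each parent, the controls carried floxed alleles too, though the labels do not say so. All glomeruli were collected with magnetic beads. The Vhl-deleted mice had urinary albumin at 4 weeks that was at or below the average of wild-type littermates. Vhl, the targeted gene, had a signal of 727 ± 74.1 (SD) in wild-type and 612 ± 6.46 in Vhl-deleted glomeruli without overlap of the groups (log2 change -0.23, limma adjusted p = 0.944). Egln3, a target of the hypoxia-inducible factors that VHL degrades, rose 29.3-fold in signal (log2 change 4.63, limma adjusted p = 9.74e-05). The marker lists for podocytes, endothelium and mesangium were nearly all above the filter described below: 17 of 17, 17 of 18 and 10 of 11 genes with a probe set.

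Cell division needs the genome to be copied once and the copies to be parted. Cyclin E starts S phase, the MCM complex unwinds the DNA, PCNA holds the polymerase on it, and ribonucleotide reductase and thymidylate synthase supply nucleotides. Cyclins A and B with the kinase CDK1 then drive mitosis, in which the spindle, the kinetochores and the checkpoint kinases part the chromosomes and the cytokinesis genes part the cells. Mature podocytes have left the cell cycle, and few cells of a healthy adult glomerulus divide, so transcripts of mitosis are scarce there. In resting cells the DREAM complex holds the mitosis genes down through a promoter element called CHR, while E2F sites act mainly in S phase genes.

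Mitosis genes had higher signals in the Vhl-deleted glomeruli in 29 of 31 cases, and S phase genes in 10 of 13. Mki67, which encodes a coat protein of mitotic chromosomes and marks dividing cells, had 2.16 times the wild-type signal, and Cenpf, a kinetochore protein gene, 2.34 times. Of the 31 mitosis genes 29 had a positive change, against 51.4% of all 18193 genes, and their median was 0.53 on the log2 scale, against 0.0082 for all genes. In 16 of the 31 every Vhl-deleted array lay above every wild-type array, against 5.32% of all genes. Of the 13 S phase genes 10 changes were positive (median 0.24) and 2 genes were without overlap, against the same 51.4% and 5.32% of all genes. The difference between the lists was not tested. No member passed the test over all genes. The arrays were of whole glomeruli, so more cells in division and more of these transcripts per cell cannot be told apart.

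A change here is the mean of log2(signal + 28) in Vhl-deleted arrays less that in wild-type arrays, where the signal is the MAS5 value; SE is its standard error, SD is that of the signals, and each group has n = 3. A gene passed the filter when its brightest probe set lay in the upper 50% of all probe sets by mean level, at a signal above 96.4. Of the 44 members 28 passed it, 19 mitosis genes and 9 S phase genes, and the values of the others are given from a fit with no filter. In the filtered test 8 of 11159 genes rose (0.0717%) and 1 fell (0.00896%) at an adjusted p of 0.05 in limma, and 0 members were among them. Without the filter 9 genes rose (0.0495%), again 0 of them members. At an unadjusted p under 0.05 in that fit 11 of the 31 mitosis genes and 0 of the 13 S phase genes were higher, against 2.65% of all genes. The members closest to the filter were Aurka, just below it with signals between 61.8 and 136, and Cdca3, just above it with signals between 61.6 and 165.

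Promoter letters were counted in both lists of members, which had been chosen by symbol. The motifs were picked with values known. RefSeq promoters (GRCm38.p6, from 250 bases before to 50 after the start of a gene) were found for 28 of the 32 mitosis and 11 of the 13 S phase genes; Aurkb, Ccna2, Kif20a, Tpx2, Ccne2 and Mcm4 had no entry. The CHR letters TTTGAA, read on both strands, stood in 22 of the 28 mitosis promoters (78.6%), in 1 of 11 S phase promoters (9.09%) and in 20.2% of the promoters of 27025 genes. The letters CCAAT, the box bound by NF-Y, stood in 23 of 28 (82.1%), 8 of 11 (72.7%) and 41.1%. Both stood together in 20 of 28 mitosis promoters, 1 of 11 S phase promoters and 8.97% of all. An E2F site, TTTGGCGC or TTTCGCGC, was in 1 mitosis promoter, that of Cdk1, in the S phase promoters of Mcm3, Mcm5, Mcm6 and Mcm7, and in 0.929% of all.

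3 other motifs were searched in the same windows. GCGGGAA was in 0 of 28 mitosis and 3 of 11 S phase promoters against 5.29% of all, and TTTAAA, a variant of the CHR, in 8 of 28 and 4 of 11 against 14.9%. ACGTG, the core of the hypoxia response element, was in 8 of 28 (28.6%) and 3 of 11 (27.3%) against 21.8%. The motifs can overlap one another, and a match is a run of letters, not a shown binding site. The plot of motif shares sets these values side by side.

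**Figure D1:**
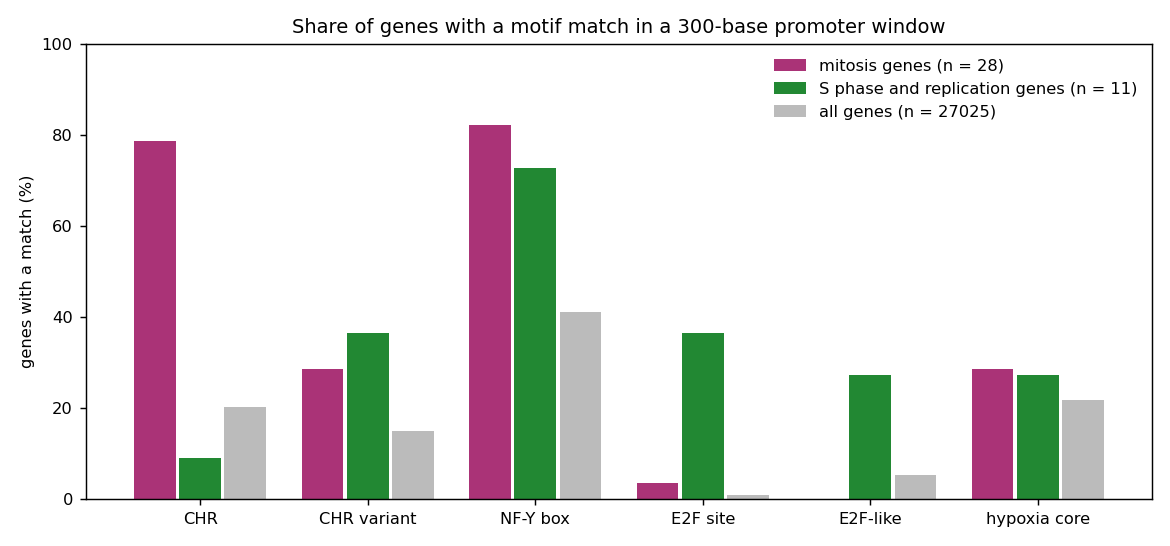
Percent of genes with at least 1 match to each of 6 motifs, on either strand, in the 300-base RefSeq promoter window, for mitosis genes (28), S phase and replication genes (11) and all genes (27025). The CHR bar reaches 78.6% for mitosis genes and 9.09% for S phase genes against 20.2% for all genes, and the E2F bar is highest for S phase genes.

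The promoters of 4 mitosis genes show the arrangement of CCAAT boxes and CHR. Each sequence runs 5′ to 3′ on the strand of the gene, from 160 bases before its start to 20 after it, with CCAAT (or its reverse), TTTGAA (or its reverse) and E2F letters in capitals. They lie in GRCm38.p6 at chr7:135716360-135716539 (minus strand) for Mki67, chr10:69352893-69353072 (minus) for Cdk1, chr1:189688067-189688246 (minus) for Cenpf and chr9:70421535-70421714 (minus) for Ccnb2. Mki67 and Cdk1 came from the rule for printed promoters, and Cenpf and Ccnb2 were added for their low p.
Mki67: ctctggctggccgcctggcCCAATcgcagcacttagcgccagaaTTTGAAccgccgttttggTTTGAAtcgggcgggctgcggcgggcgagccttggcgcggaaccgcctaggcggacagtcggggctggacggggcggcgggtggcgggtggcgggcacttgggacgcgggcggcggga
Cdk1: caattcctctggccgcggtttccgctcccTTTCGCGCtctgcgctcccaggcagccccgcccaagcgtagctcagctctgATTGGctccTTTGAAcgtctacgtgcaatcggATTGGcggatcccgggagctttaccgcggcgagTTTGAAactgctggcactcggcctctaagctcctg
Cenpf: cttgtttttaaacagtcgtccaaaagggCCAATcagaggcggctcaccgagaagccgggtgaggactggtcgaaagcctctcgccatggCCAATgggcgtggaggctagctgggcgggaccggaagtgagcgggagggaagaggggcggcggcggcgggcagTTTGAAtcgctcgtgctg
Ccnb2: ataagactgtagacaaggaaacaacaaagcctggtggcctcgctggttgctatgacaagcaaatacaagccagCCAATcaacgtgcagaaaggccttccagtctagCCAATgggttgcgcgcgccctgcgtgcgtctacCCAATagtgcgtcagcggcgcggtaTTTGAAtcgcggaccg
In Cdk1, Cenpf and Ccnb2 a TTTGAA lay within 20 bases of the start, downstream of the CCAAT boxes. In Mki67 both TTTGAA lay farther upstream.

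The promoters of 4 S phase genes from the same rule had no TTTGAA in this window. They lie at chr1:128359686-128359865 (minus strand) for Mcm6, chr8:75109349-75109528 (plus) for Mcm5, chr1:20820293-20820472 (minus) for Mcm3 and chr12:24708094-24708273 (plus) for Rrm2, with the same letters in capitals.
Mcm6: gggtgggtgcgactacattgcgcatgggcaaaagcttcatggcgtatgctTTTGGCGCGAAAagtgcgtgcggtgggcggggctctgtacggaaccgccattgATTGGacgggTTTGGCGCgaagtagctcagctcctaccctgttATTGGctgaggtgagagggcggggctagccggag
Mcm5: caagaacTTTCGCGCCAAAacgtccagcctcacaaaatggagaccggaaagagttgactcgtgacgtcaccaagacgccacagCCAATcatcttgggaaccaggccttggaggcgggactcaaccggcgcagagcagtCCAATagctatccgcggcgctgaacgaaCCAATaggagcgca
Mcm3: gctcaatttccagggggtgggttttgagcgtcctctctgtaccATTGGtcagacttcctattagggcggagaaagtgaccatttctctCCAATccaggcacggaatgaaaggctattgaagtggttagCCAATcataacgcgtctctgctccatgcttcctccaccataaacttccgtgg
Rrm2: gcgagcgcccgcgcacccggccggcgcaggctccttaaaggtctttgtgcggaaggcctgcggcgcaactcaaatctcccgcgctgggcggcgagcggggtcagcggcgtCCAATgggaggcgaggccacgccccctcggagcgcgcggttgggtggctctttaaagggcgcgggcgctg
Mcm6 and Mcm5 each held E2F letters on both strands as overlapping pairs, and all 4 held CCAAT. The E2F match of Mcm3 lies outside the stretch shown.

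Among the genes of chromosome structure and general proliferation, Mki67 had signals of 212, 216 and 198 in wild-type replicates 1 to 3, against 455, 453 and 446 in Vhl-deleted replicates 1 to 3. The groups stood far apart and each was tight, with 209 ± 9.36 (SD) against 451 ± 4.89. The log2 change was 1.02 (SE 0.12, 95% interval 0.73 to 1.30), and the limma adjusted p over all genes was 0.0518, just short of the threshold of 0.05. In 19 other settings the change ran from 0.92 to 1.06 and the adjusted p from 0.0117 to 0.767, and it passed in 5 of them. Top2a, the topoisomerase that untangles chromosomes, had signals of 189, 162 and 147 in the wild-type and 215, 350 and 373 in the Vhl-deleted arrays. All 3 Vhl-deleted arrays were higher, the first by little, and the change was 0.78 (SE 0.23, limma adjusted p = 0.741). Dimmer Top2a probe sets were at 0.95 and 0.083.

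The mitotic cyclins and their kinase were higher without overlap. Ccna2, cyclin A, had signals of 163, 175 and 125 in the wild-type and 219, 280 and 332 in the Vhl-deleted arrays, 1.79 times as much on average (log2 change 0.73, SE 0.20, limma adjusted p = 0.729). Its second probe set above the filter was at 0.64. Ccnb2, a cyclin B, had nearly equal wild-type signals of 109, 114 and 115 and Vhl-deleted signals of 184, 208 and 172. Its change was 0.61 (SE 0.16, limma adjusted p = 0.671). Cdk1, the kinase that these cyclins activate, had signals of 253, 232 and 149 in the wild-type and 315, 291 and 326 in the Vhl-deleted arrays. Wild-type replicate 3 was the low array here, and the change of 0.53 (SE 0.20, limma adjusted p = 0.944) was 0.32 without it.

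The genes of cyclin destruction overlapped between the groups. Cdc20, which activates the anaphase-promoting complex, ran from 211 to 393 in wild-type and from 349 to 417 in Vhl-deleted arrays (change 0.35, 95% interval -0.17 to 0.86). Ube2c, the ubiquitin-conjugating enzyme of that complex, was at 0.47 (-0.16 to 1.10), with its lowest signal, 83.3, in wild-type replicate 3. Cdca3, which triggers mitotic entry, was at 0.47 (-0.10 to 1.05).

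Of 5 centromere and passenger complex genes 3 were without overlap, against 5.32% of all genes. Cenpf, a large kinetochore protein, had signals of 60.7, 82.3 and 88.3 in the wild-type and 172, 177 and 193 in the Vhl-deleted arrays. Its gap was wide next to the spread of either group, with a change of 1.00 (SE 0.18, 95% interval 0.56 to 1.43, limma adjusted p = 0.313). Cdca8, borealin of the chromosomal passenger complex, went from 109 ± 16.3 (signals 124, 91.7 and 112) to 192 ± 25.8 (SD; 188, 220 and 169), a change of 0.68 (SE 0.18, limma adjusted p = 0.720). Birc5, survivin of the same complex, had a smaller difference, 116 ± 15.3 against 143 ± 3.71 (SD), a change of 0.25. Cenpa, the histone variant of the centromere, was at 0.22 (-0.38 to 0.81) with overlapping groups, and Cenpe, a kinetochore motor below the filter, was at 0.59 (-0.32 to 1.49).

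**Figure D2:**
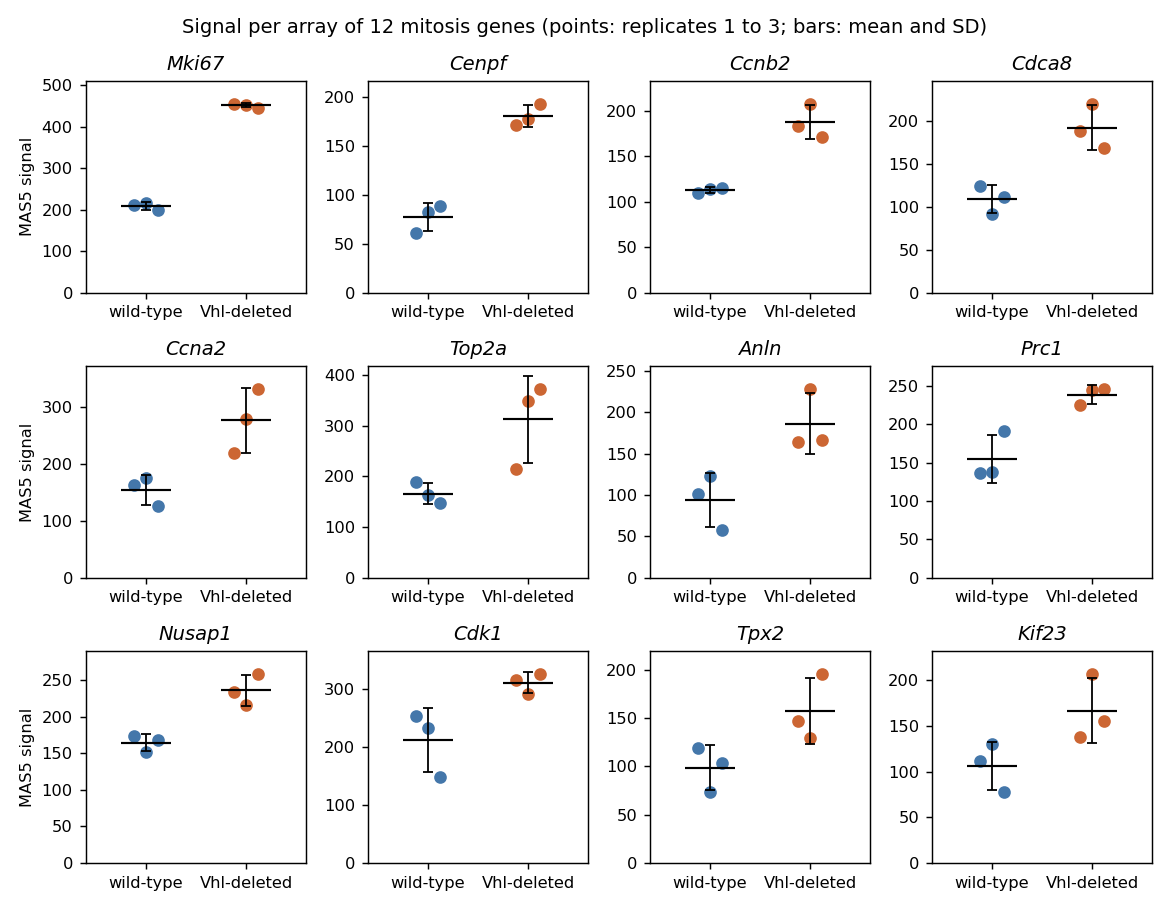
MAS5 signal on each array (linear axis from 0) for the 12 mitosis genes of lowest unadjusted p, wild-type (3 points) and Vhl-deleted (3 points), with the mean and SD as bars. In each of the 12 panels the 3 Vhl-deleted points lie above the 3 wild-type points, with the widest gaps in Mki67 (198 to 216 against 446 to 455) and Cenpf. The genes were picked by p on these same arrays, so the separation follows largely from the choice. Of the tested mitosis genes not shown, Cdc20, Ube2c, Cdca3, Cenpa and Ect2 overlapped between the groups, and Birc5 and Racgap1 did not.

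Of 8 spindle motors and microtubule proteins 6 had positive changes, 5 of them without overlap, against 51.4% and 5.32% of all genes. Prc1, which bundles microtubules of the midzone, had signals of 137, 137 and 191 in the wild-type and 225, 245 and 246 in the Vhl-deleted arrays (change 0.55, SE 0.17, limma adjusted p = 0.810). Its second probe set above the filter was at 0.53. Nusap1, a spindle-associated protein, went from 174, 152 and 169 to 234, 216 and 259 (change 0.45, SE 0.15). The groups of both genes were apart, though the wild-type signals of Prc1 were spread over a wider range than the gap between its groups.

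Tpx2, the activator of Aurora A on the spindle, had signals of 119, 73.2 and 103 in the wild-type and 146, 129 and 196 in the Vhl-deleted arrays (change 0.55, SE 0.23). Kif23, a motor of the midzone, had signals of 112, 130 and 78.2 against 138, 207 and 156 (change 0.54, SE 0.23), and Kif11, the motor that parts the spindle poles, was below the filter at 0.39 without overlap. Dimmer Tpx2 probe sets disagreed, 2 with negative changes of -0.16 and -0.38 and 1 at 0.44. Kif20a was at 0.67 (-0.13 to 1.46). The 2 mitosis genes with a negative change were both motors below the filter: Kif4 at -0.14 (-0.74 to 0.46), and Kif2c at -0.61 (-1.68 to 0.47), whose Vhl-deleted signals ran from 6.40 to 106 and whose other 3 probe sets were at -0.048, 0.23 and 0.69.

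All 3 cytokinesis genes had positive changes. Anln, the anillin of the contractile ring, had signals of 101, 123 and 57.8 in the wild-type and 164, 228 and 167 in the Vhl-deleted arrays, a change of 0.84 (SE 0.26, limma adjusted p = 0.810). Racgap1, which with Kif23 forms centralspindlin, was at 0.40 without overlap, between 62.7 and 107 against 111 to 142. Ect2, the exchange factor that turns on RhoA at the cell equator, was at 0.38 (-0.11 to 0.86), and its groups overlapped.

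The 7 mitotic and checkpoint kinases were all dim, and all had positive changes with wide intervals. Bub1, a spindle checkpoint kinase, was the one without overlap, at 20.3, 44.6 and 18.4 in the wild-type and 51.6, 67.3 and 66.9 in the Vhl-deleted arrays (change 0.71, 95% interval 0.12 to 1.31). Its second, dimmer probe set was at -0.56. Bub1b was at 0.82 (-0.17 to 1.81), Plk1, which matures the spindle poles, at 0.56 (SE 0.40), Aurka at 0.49 (-0.078 to 1.06), Melk at 0.43, Ttk at 0.28 and Aurkb at 0.058 (-0.60 to 0.71). Dimmer probe sets were at 0.024 and 0.21 for Bub1b, -0.38 for Aurka, 0.21 for Aurkb and 0.051 for Ttk. Signals this low are imprecise: Plk1 was between 64.1 and 80.5 on 5 arrays and at 9.06 on wild-type replicate 3.

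**Figure D3:**
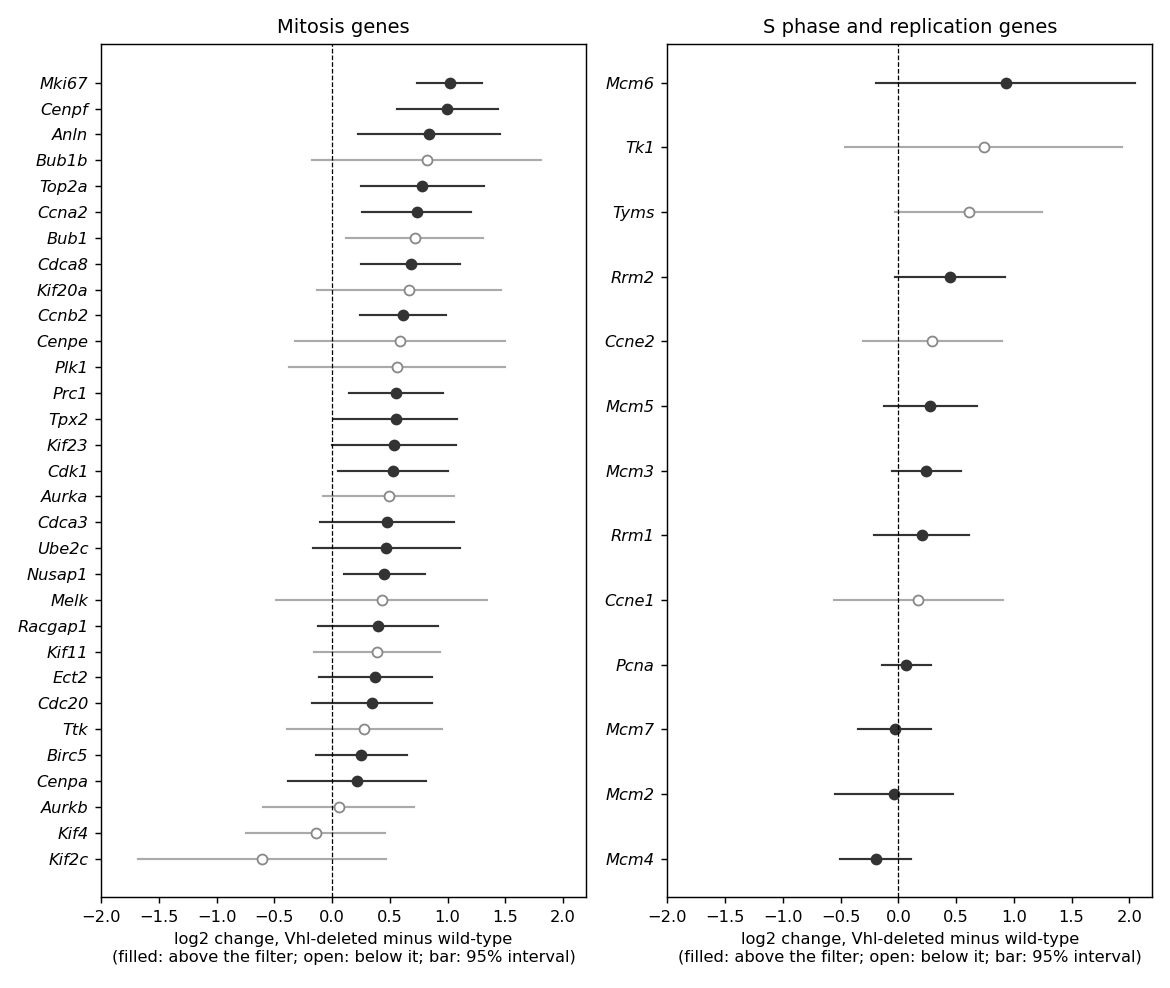
Log2 change (Vhl-deleted minus wild-type) with its 95% interval for 31 mitosis genes and 13 S phase genes, sorted by size; filled points passed the filter, open points did not and come from the fit with no filter. Kif4 and Kif2c lie below 0 among the mitosis genes, whereas the MCM genes lie on both sides of it.

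The S phase genes had changes of both signs, 10 of 13 being positive against 51.4% of all genes. Among the 6 subunits of the MCM helicase 3 had positive and 3 negative changes. Mcm3 was without overlap, at 481, 456 and 565 in the wild-type and 567, 582 and 636 in the Vhl-deleted arrays, where the highest wild-type and the lowest Vhl-deleted signal nearly met (change 0.24, 95% interval -0.057 to 0.54). Other Mcm3 probe sets above the filter were at 0.49, 0.35 and 0.053, the first of them also without overlap. Mcm5 was at 0.27 (-0.13 to 0.68), and its second probe set above the filter was at 0.36. Mcm4 had signals of 1019, 1147 and 925 in the wild-type and 975, 912 and 798 in the Vhl-deleted arrays, a change of -0.20 (-0.50 to 0.11). Mcm2 was at -0.036 (-0.55 to 0.47) and Mcm7 at -0.032 (-0.35 to 0.28). Further probe sets above the filter were at -0.12 for Mcm4, 0.032 for Mcm2, and -0.048, 0.025 and -0.23 for Mcm7. The median change of the 31 mitosis genes, 0.53, lay inside the intervals of Mcm3 and Mcm5 and above those of Mcm2, Mcm4 and Mcm7.

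Mcm6 varied most between arrays of a group. Its signals were 777, 271 and 189 in the wild-type and 817, 810 and 481 in the Vhl-deleted arrays, so that wild-type replicate 1 stood with the Vhl-deleted arrays. The change was 0.93 (SE 0.48, 95% interval -0.19 to 2.05); it was 1.48 without wild-type replicate 1 and 0.54 without wild-type replicate 3. The second Mcm6 probe set above the filter had the same order of arrays within wild-type, with 407, 131 and 68.9, and 485, 421 and 169 in Vhl-deleted arrays.

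Pcna, the sliding clamp, was steady, with 5375 ± 266 (SD) in wild-type and 5628 ± 158 in Vhl-deleted arrays and a change of 0.067 (95% interval -0.15 to 0.28). The genes of nucleotide supply were all positive. Rrm2, the small subunit of ribonucleotide reductase, had signals of 256, 329 and 195 in the wild-type and 320, 347 and 410 in the Vhl-deleted arrays, overlapping between 320 and 329, with a change of 0.45 (-0.033 to 0.93). Its other probe sets above the filter were at -0.082 and 0.58. Rrm1, the large subunit, was at 0.20 (-0.21 to 0.61).

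The remaining S phase genes were below the filter. Tyms, thymidylate synthase, was without overlap at 40.2, 13.8 and 27.2 against 74.5, 41.6 and 50.2, a change of 0.61 (-0.027 to 1.24). Tk1, thymidine kinase, was at 0.74 (-0.46 to 1.94) with 1 wild-type array at 9.36. The cyclin E genes Ccne1 and Ccne2 were at 0.17 (-0.56 to 0.90) and 0.29 (-0.31 to 0.90), and their groups overlapped.

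**Figure D4:**
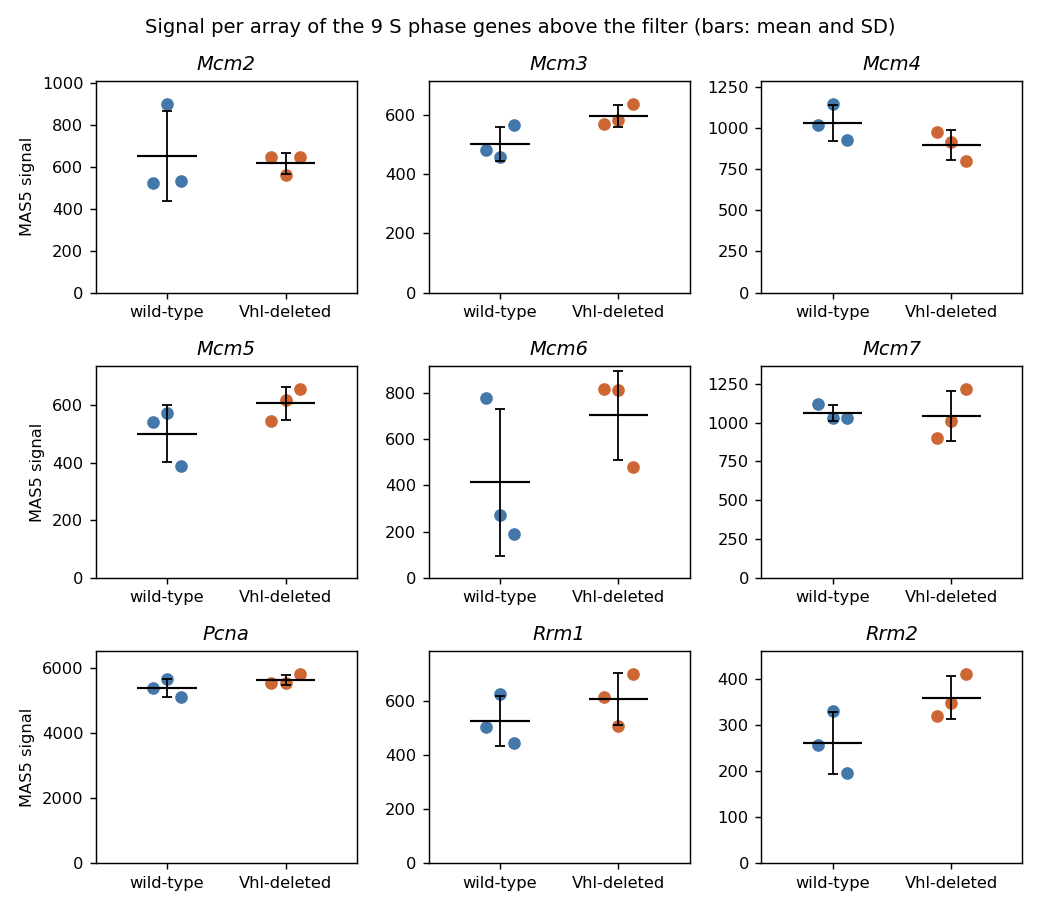
MAS5 signal on each array (linear axis from 0) for the 9 S phase genes above the filter, wild-type and Vhl-deleted (3 points each), with the mean and SD as bars. The groups overlap in 8 of the 9 panels, Mcm3 being the one apart, and Mcm6 has the widest spread, 189 to 777 within wild-type.

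The 31 mitosis genes had 66 probe sets, of which 52 had a positive change. Negative ones included dimmer probe sets of Anln (-0.12), Nusap1 (-0.16), Aurka (-0.38) and Cenpe (-0.27). Dimmer Cenpf probe sets were at 0.60 and 0.28. The 22 above the filter were all positive, but the filter uses the mean over both groups and so favours probe sets that are high in 1 of them: the wild-type mean signals of Cenpf (77.1), Cdca3 (81.3), Racgap1 (88.8) and Anln (93.9) lay below it. That count is therefore no support for a direction. Of the mitosis genes 3 had several probe sets above the filter, and none of these had opposite signs. Of the 34 S phase probe sets 25 were positive, and of the 22 above the filter 15. Of the 8 S phase genes with several such probe sets 3, Mcm2, Mcm7 and Rrm2, had both signs.

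Other genes of the same processes were read from lists that hold none of the members. Of 56 other mitosis genes 46 had positive changes (median over the list 0.24), and 16 were without overlap, against 51.4% and 5.32% of all genes. In the filtered test 0 of the 32 that passed the filter were called by limma. With no filter 7 of the 56 were higher at an unadjusted limma p under 0.05, against 2.65% of all genes. Ckap2, a microtubule-stabilising protein of the spindle, had signals of 83.4, 96.6 and 55.1 in the wild-type and 143, 188 and 177 in the Vhl-deleted arrays, a change of 0.91 (SE 0.22, limma adjusted p = 0.634). The mitotic kinase gene Pbk was at 0.60 and Cks1b, a partner of the cyclin-dependent kinases, at 0.40 (limma adjusted p = 0.741 and 0.737), both without overlap.

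The other replication genes, such as those of origin recognition, polymerases and clamp loading, had a median of 0.035 over 47 genes, and 26 of them were positive. Tipin, a fork protection protein, was at 0.32 without overlap. Pole, the catalytic subunit of a replicative polymerase, was at -0.38 (-0.83 to 0.071) and Orc1, of the origin recognition complex, at -0.53 (-1.18 to 0.13). None of the 39 that passed the filter was called by limma. With no filter 2 of the 47 were higher at an unadjusted limma p under 0.05, against 2.65% of all genes.

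Regulators of these genes had a median near 0. Of 21 E2F, RB, MYB and FOXM1 genes 14 were positive with a median of 0.073. In the filtered test 0 of the 15 above the filter were called by limma. Of lowest limma p among these 15 was Tfdp2, a partner of E2F. It had signals of 1253, 1106 and 1279 in the wild-type and 890, 999 and 1037 in the Vhl-deleted arrays, a change of -0.31 (SE 0.11, limma adjusted p = 0.943). The repressor E2f6 was at -0.20 and E2f5 at 0.23. Genes of replication stress and recombination had a median of 0.043 over 16 genes, with Atrip at -0.25, Rmi1 at 0.14 and Atr at -0.082.

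The mean log2 level of the 31 mitosis genes separated the groups. It stood at 6.95, 6.95 and 6.77 in wild-type replicates 1 to 3 and 7.30, 7.41 and 7.42 in Vhl-deleted replicates 1 to 3. Of the 31 genes 30 had their highest signal on a Vhl-deleted array, 29 had their lowest on a wild-type array, and 14 of these lowest signals were on wild-type replicate 3. For the 13 S phase genes it stood at 8.63, 8.64 and 8.33 in the wild-type and 8.84, 8.75 and 8.85 in the Vhl-deleted arrays. The groups were apart in both lists, by a wider gap in the mitosis list; the difference between the lists was not tested.

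Wild-type replicate 3 stood apart in the markers of other cells. Its tubule list had a summed signal of 44515, against 117830 to 192685 on the other 5 arrays, and all 20 tubule markers were above the filter. All 20 had a positive change, at a median of 0.53 (Lrp2 0.73, Cubn 0.83), and 0 were without overlap. Their part in the mitosis signals was not tested beyond the fit with their level as a covariate. With wild-type replicate 3 left out and no filter, 28 of the 31 mitosis genes still had positive changes (median 0.48), as did 10 of the 13 S phase genes (median 0.16). The podocyte list had a summed signal between 132493 and 171527 in wild-type and between 117303 and 140986 in Vhl-deleted arrays, with 2 of 17 markers positive and a median change of -0.28 (Nphs1 -0.38, Wt1 -0.34).

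Leukocyte markers were also mostly higher in the Vhl-deleted arrays. Of 22 with a probe set 19 were positive with a median of 0.42, and 14 were above the filter. Without overlap 7 of the 22 were higher, against 5.32% of all genes, and 1 was lower. With no filter 6 were higher at an unadjusted limma p under 0.05, against 2.65% of all genes. Their summed signal ran from 6683 to 9540 in wild-type and from 10804 to 15708 in Vhl-deleted arrays, with no overlap. Ptprc, the common leukocyte antigen, had signals of 729, 473 and 485 in the wild-type and 826, 928 and 939 in the Vhl-deleted arrays (change 0.67). The T cell genes Cd3e and Cd3g, the B cell genes Cd79a and Cd79b, and Itgam, Itgax, C1qa and C1qb were not above the filter, while Cd68, a macrophage marker, was at 0.14.

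The mean log2 level of the 14 leukocyte markers above the filter was 9.09, 8.79 and 8.56 in wild-type replicates 1 to 3, and 9.27, 9.15 and 9.56 in Vhl-deleted replicates 1 to 3, so that these groups did not overlap, like those of the mitosis level. Over all 22 markers they did overlap, Vhl-deleted replicate 2 being at 7.92 and wild-type replicate 1 at 7.94. The level of the 14 would overlap too if Cd74, H2-Aa, H2-Ab1 and H2-Eb1 were left out of it. With the level of the 14 markers on each array as a covariate the median change of the 19 tested mitosis genes was 0.44, that of Mki67 0.98, of Cenpf 1.17, of Cdk1 0.080, of Ccna2 0.40 and of Tpx2 0.19, and that of the 9 tested S phase genes -0.047. The 19 mitosis genes had passed the filter, which favours probe sets that are high in 1 group. The part of leukocytes in the mitosis signals was not tested further. Among other cells, the medians were 0.29 for 10 parietal epithelial markers (Cldn1 0.22, Pax8 0.35), 0.17 for 11 mesangial markers (Pdgfrb 0.22, Gata3 0.20), 0.020 for 18 endothelial markers (Pecam1 -0.21, Cdh5 -0.12) and -0.29 for 3 erythroid markers (Alas2 -0.40, Slc4a1 0.022).

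**Figure D5:**
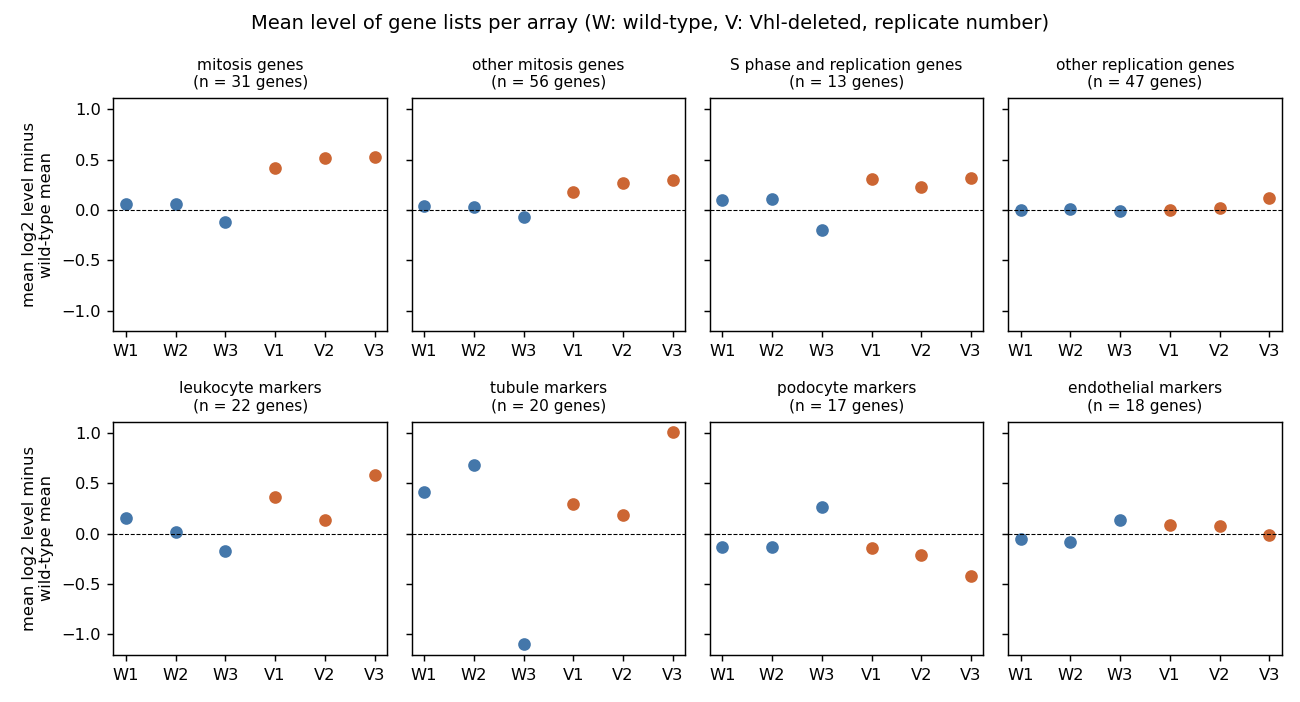
Mean log2 level of 8 gene lists on each array, less the wild-type mean of that list, with no filter; W1 to W3 are the wild-type and V1 to V3 the Vhl-deleted replicates. The mitosis lists step up in all 3 Vhl-deleted arrays and the other replication genes stay near 0, while the tubule list has its lowest value in wild-type replicate 3 and its highest in Vhl-deleted replicate 3.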

How the data were processed

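Per the submitters' processing notes MAS5 was used, with no version given; the deposited values are its signal intensities, not on a log scale. The 2% trimmed mean was 500 on all 6 arrays, medians were 94.6 to 107.5, and no arrays were identical or left out. With 3 arrays per group, precision is limited by their number. The labels call the mice biological replicates.

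Probe sets were named from the platform annotation, with symbols updated by Entrez number through RefSeq (34741 of 34945 with 1 symbol); 932 with several symbols and 9160 with none were left out. The offset of 28 is the 25th percentile of all values and shrinks the changes of dim genes. The brightest probe set stood for each gene. Tests used limma 3.58.1 (R 4.3.3; eBayes with trend, two-sided, Benjamini-Hochberg over 11159 genes) and were tested on simulated data.

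The members and lists were chosen with earlier results of these data known, so no list was tested as a set. By rule, array signals are given for the 12 mitosis and 5 S phase genes of lowest p, and values for the 3 genes of lowest p in each other pathway list and the first 2 of each marker list; other signals and the motifs were picked with values known. Same-numbered arrays did not deviate together (correlations -0.02, -0.41 and -0.51), and the main fit did not pair them. With 3 arrays per group these correlations cannot exclude that the numbers pair mice. Alternatives changed scaling, pseudocount, filter, probe set, variance model, array weights, block and covariates.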

Additional observations from a re-analysis of the deposited data

How the results depend on the processing

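The median change of the tested mitosis genes was positive in every setting that tested any of them: 0.44 with the pseudocount of 64, 0.44 with the leukocyte covariate, and 0.51 to 0.61 when 1 array was left out. The filter favours probe sets that are high in 1 group, so the sign of these filtered medians is no support for a direction. With no filter and 1 array left out it was 0.48 to 0.59, with 28 to 30 of 31 genes positive. Among the brightest 30% of probe sets no mitosis gene was left to test. The S phase median was 0.090 with array weights, 0.078 with the tubule covariate, -0.047 with the leukocyte covariate and 0.09 to 0.26 when 1 array was left out, and with no filter 0.16 to 0.33, with 10 to 11 of 13 genes positive.

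The count of mitosis genes called higher, 0 in the report, was 1 (Mki67) with array weights (adjusted p = 0.0117), with the tubule covariate (0.0296), with the mean over kept probe sets (0.0344), without the intensity trend (0.0464) and with the filter on the linear mean (0.0455), a setting added after the data were seen. It was 0 when any 1 array was left out, and 0 S phase genes were called in any setting run. Over all genes 30 rose and 3 fell with array weights, 31 and 4 with the tubule covariate, 3 and 0 with the leukocyte covariate; 14 rose with the filter on the linear mean, and 0 fell with the mean over kept probe sets or without the trend. Leaving out 1 array gave 1 to 12 that rose and 0 to 1 that fell. With the replicate number as a block 1 rose and 0 fell, no member was called, and Mki67 had an adjusted p of 0.752.

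Over all named genes and alternatives 593 values kept their sign and side of the threshold, the 5 above passed it (Mki67) and 4 turned sign, none of them called: Mcm5 was at -0.047 with the leukocyte covariate, E2f5 at -0.15 and Atr at 0.063 with the mean over kept probe sets, and Rmi1 at -0.047 without wild-type replicate 2 (-0.047 to 0.30 when any 1 array was left out). The cause was not tested. Signals of the members below the filter lie near background, which limits what they can show.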
